A study of Mus musculus with 4 samples.

Results

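The ribosomal protein genes, which encode the proteins of the cytosolic ribosome, were compared between otocysts of Tbx2/3cDKO embryos and of control embryos. Members were taken by name from the array: every non-control probe named Rpl or Rps with a number, or Rpsa, Rplp0, Rplp1 or Rplp2, leaving out names that end in -ps and a number (pseudogenes) and the Rps6k kinases. This gave 85 genes with 173 probes, of 31791 gene names on the array. Of these, 83 genes had a probe well above background and were tested, among 18445 genes tested in all. The other 2, Rpl3l and Rpl10l, were not well above background on any array in either genotype.

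The otocyst is the epithelial vesicle from which the inner ear forms. Embryos of the NMRI strain were taken at E10.5, in mid-gestation. The mutants carried a Pax2-cre transgene and were Tbx2(fl/fl) and Tbx3(fl/fl), so that both T-box transcription factor genes were to be deleted only where the Pax2 transgene is active, and the controls were Tbx2(fl/?) and Tbx3(fl/?) with no cre named. Each of 4 arrays carried 1 mutant and 1 control RNA, from females on replicates 1 and 2 and from males on replicates 3 and 4, with the mutant RNA in the red dye on replicates 1 and 3 and in the green dye on replicates 2 and 4. No label says that the RNAs came from separate embryos or pools, so the spread behind the p-values is that between the 4 arrays and may be a technical one.

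A ribosome is built from a small subunit, which reads the mRNA, and a large subunit, which joins the amino acids. Each subunit holds ribosomal RNA and a set of proteins, most of them from 1 gene each, and the lateral stalk proteins Rplp0, Rplp1 and Rplp2 recruit the elongation factors. The mRNAs are among the most abundant in growing cells, and many begin with a run of pyrimidines (C or T), the 5′ terminal oligopyrimidine tract, through which mTOR signalling controls their translation. In the embryo, loss of 1 copy of some of these genes affects particular tissues, and Rpl38 is known for its role in patterning the axial skeleton.

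Runs of pyrimidines were found near the annotated starts of a part of the members. Runs that begin before or after the start were counted too, so a run is not shown to be a 5′ terminal tract. In RefSeq's promoter table (GRCm38.p6), 64 of the 85 members had an entry, and 24 of them (37.5%) held a run of at least 8 C or T in the 30 bases from 10 before to 20 from the annotated start, against 3517 of 27025 genes (13.0%). Among the 56 of them that are ribosome subunits the share was 41.1%, and among the other 8, Rps19bp1 and the paralogs with an entry, it was 12.5%, which is Rpl22l1 alone. The following windows show such runs in genes whose ratios are given below, on the strand of the gene with the longest run in capitals. They were chosen after their letters were seen, and the last of them, of a paralog, has no such run.
Rpl27a: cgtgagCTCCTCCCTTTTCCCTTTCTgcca
Rpl35: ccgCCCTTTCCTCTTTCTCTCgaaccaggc
Rps6: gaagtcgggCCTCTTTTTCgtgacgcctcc
Rpl38: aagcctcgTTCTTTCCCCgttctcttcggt
Rplp2: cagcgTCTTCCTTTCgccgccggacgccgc
Rpl7l1: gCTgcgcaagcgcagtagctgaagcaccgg
The window of Rpl27a lies at chr7:109519185-109519214 (plus strand), that of Rpl35 at chr2:39005112-39005141 (minus strand) and that of Rps6 at chr4:86857348-86857377 (minus strand). The window of Rpl38 lies at chr11:114668570-114668599 (plus strand), that of Rplp2 at chr7:141447641-141447670 (plus strand) and that of Rpl7l1 at chr17:46782637-46782666 (minus strand). In the whole 300-base promoters, on either strand, the letters CCGGAAG were found in 26 of the 64 members (40.6%), against 9.93% of all genes, and AAGATGG in 10 (15.6%), against 7.28%. The letters TATAAA were found in 7 (10.9%), against 15.7%. These matches describe the letters and are not binding sites shown by the data.

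The ribosomal protein genes lay close to a ratio of 1 between the genotypes, with 1 exception whose probes disagree. Of the 83 tested, 0 were called higher and 1 lower in the mutant (limma, Benjamini-Hochberg adjusted p under 0.05 over all genes), where 13.5% of all genes tested were called higher and 10.1% lower. These shares of all genes were 8.51% and 5.61% without replicate 3, and 9.1% and 6.25% without replicate 1. The other 82 had mean log2 ratios of mutant over control between -0.14 (Rps2) and 0.21 (Rpl39l). At an unadjusted p under 0.05, 2 members were higher and 2 lower, against 35.4% of all genes in either direction. The median log2 ratio of the members was 0.01, and their SD was 0.13 with Rpl21 and 0.06 without it, against 0.29 over all genes. The quartiles of the members were -0.03 and 0.05, against -0.09 and 0.10 over all genes. The members' 95% intervals lay within 1.5-fold in either direction for 82 of 83, against 91% of all genes, and within 1.2-fold for 79 of 83, against 58%. The loess fit sets each ratio relative to spots of like brightness on its array. A shift shared by the brightest genes could thus be partly fitted away. With median centring in place of loess the members' median was -0.04. Only means over arrays were compared, and in bulk RNA fewer cells of a type and less RNA per cell cannot be told apart.

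**Figure D1:**
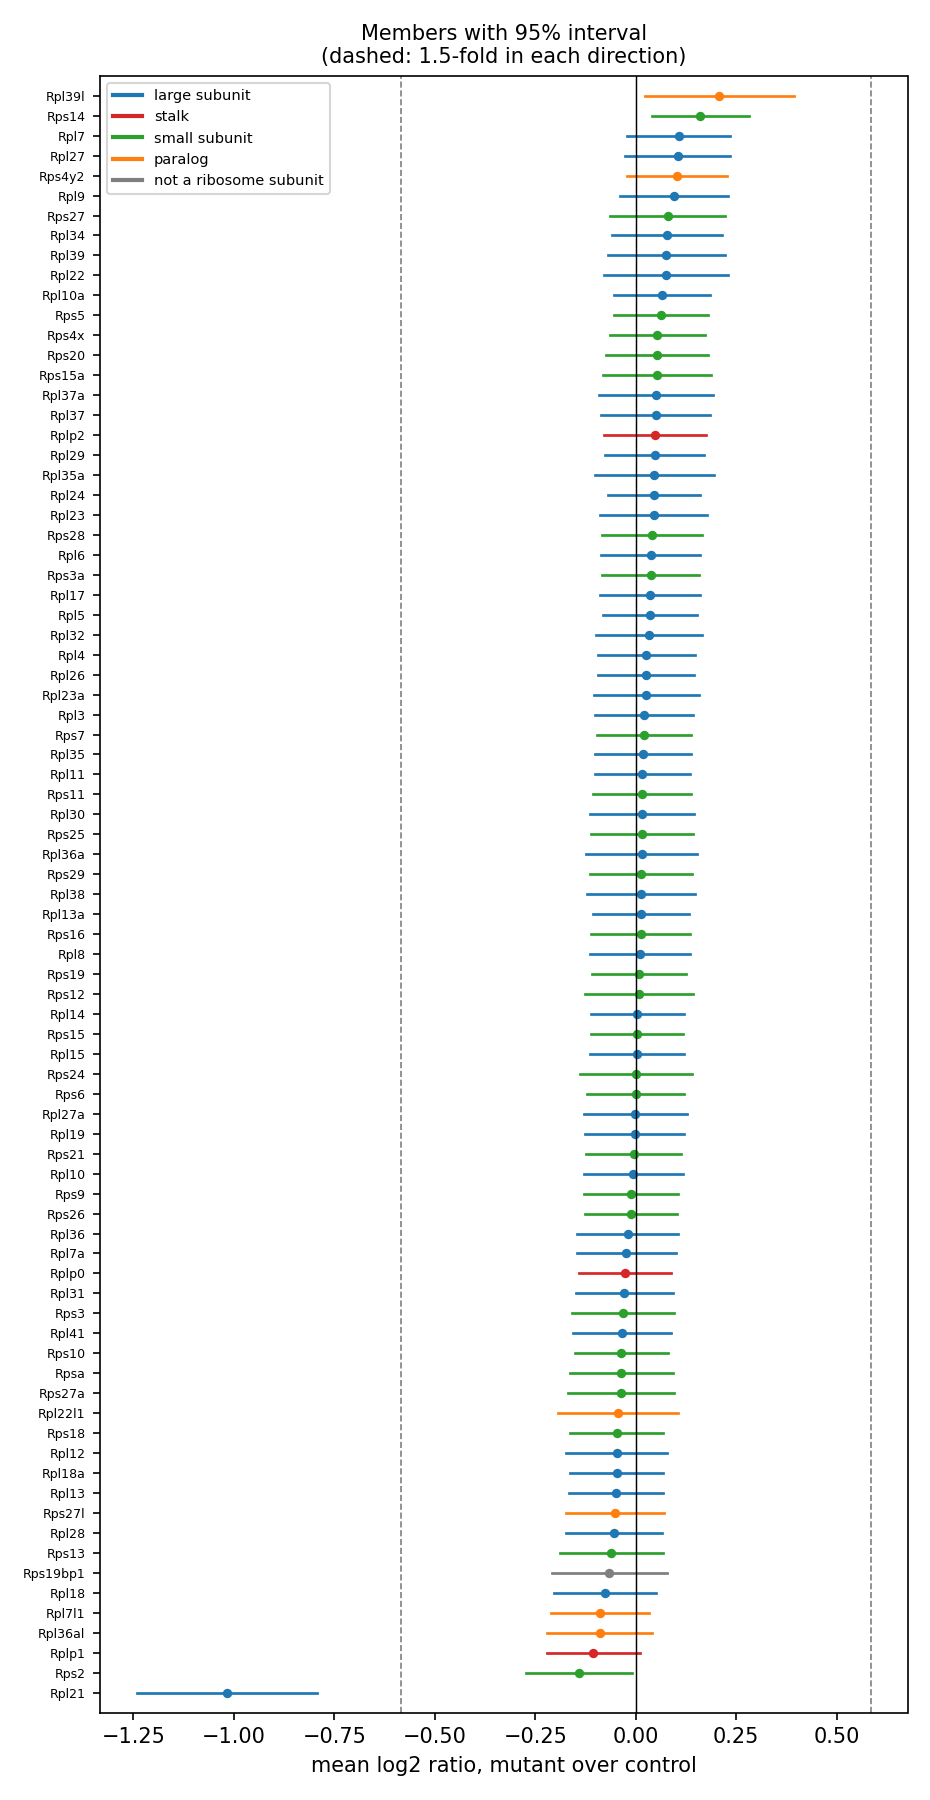
Mean log2 ratio of mutant over control (x axis) of 81 of the 83 members, ordered by value, with the 95% interval from limma over 4 arrays; colours give the class and dashed lines mark 1.5-fold. Rpl21 stands at -1.02, and the other members drawn lie between -0.14 and 0.21.

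Within a single array the members did not sit at 0. The median member ratio was 0.11 on replicate 1 and 0.14 on replicate 3, where the mutant RNA was red, and -0.14 on replicate 2 and -0.07 on replicate 4, where it was green. The sign thus followed the dye and not the sex. The dye term of the fit, the part of the ratio that stays with the red channel, was above 0 for 68 of 83 members, with a median of 0.11 against -0.01 over all genes. Without Rpl21, the members' ratios on the 2 arrays with a red mutant correlated at 0.72 and those on the 2 arrays with a green mutant at 0.58, while the 4 pairs of opposite dye gave between -0.59 and -0.19. These correlations are across 82 genes that share arrays and dyes, and genes are not replicates. With the dye term fitted, the median residual SD of a member was 0.07, against a median SD of 0.15 over the 4 arrays as they stand. For all genes the median residual SD was 0.10. Only 4 of 83 members had 1 sign on all 4 arrays, where 41.5% of all genes did: Rpl21 and, none of them called, Rpl36al and Rplp1 below 0 and Rps4y2 above 0.

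**Figure D2:**
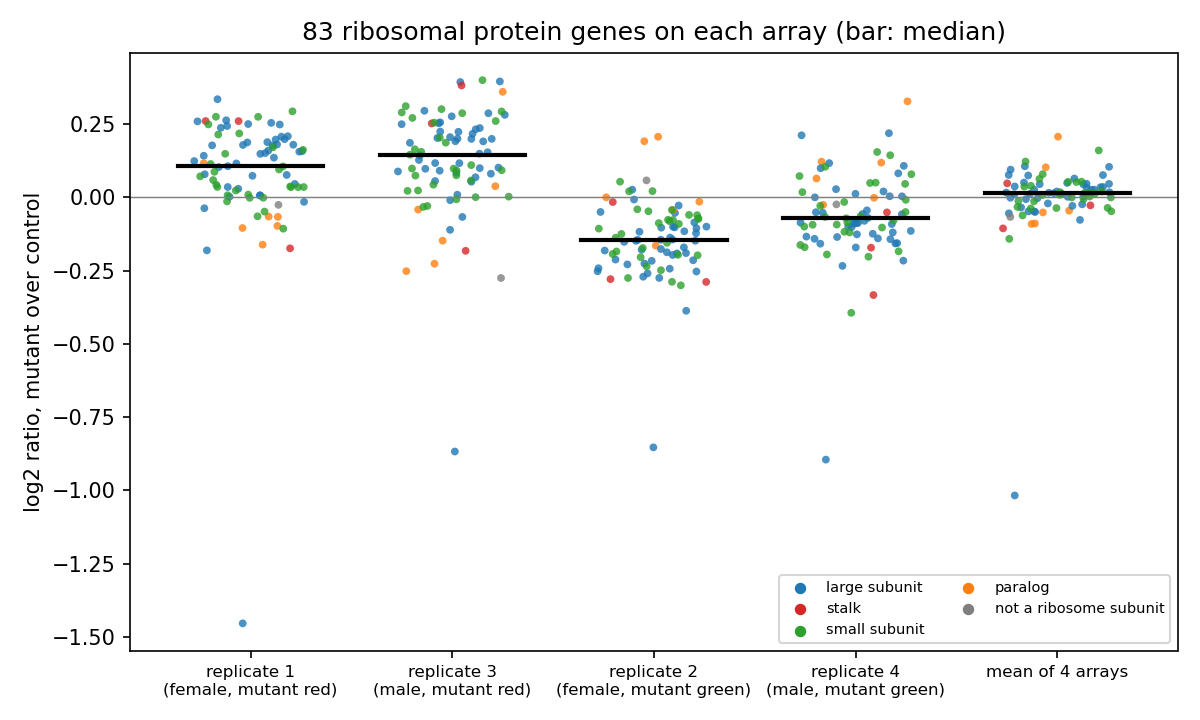
Log2 ratio of mutant over control (y axis) of each of the 83 members on each array and as the mean of 4 arrays, coloured by class; black bars are medians. The medians of 0.11 and 0.14 with a red mutant and of -0.14 and -0.07 with a green mutant average to a median of 0.01.

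The spread between spots of 1 probe within an array could be seen for Rpl23. A second, dimmer probe of Rpl23, a large subunit protein that can bind the p53 regulator Mdm2, was printed 10 times on each array. The SD between its 10 spots ranged from 0.01 to 0.05 within an array, while the means on the 4 arrays were -0.02, 0.21, 0.17 and 0.29. The brightest probe of Rpl23, which enters the counts, gave 0.16, -0.21, 0.28 and -0.04. The dim probe did not share the dye pattern of the brightest, since its 2 arrays with a green mutant were its highest.

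The large subunit was represented by 43 genes, of which 0 were called higher and 1 lower, against 13.5% and 10.1% of all genes. Without Rpl21, their mean ratios ran from -0.08 (Rpl18) to 0.11 (Rpl7), with a median of 0.02 and an SD of 0.04. The brightest 4 members on the array were all of this subunit: Rpl41, the shortest ribosomal protein, Rpl37a, Rpl10a and Rpl35. A probe's brightness depends on its sequence as well as on its transcript, so it does not rank the genes. Rpl41 gave log2 ratios of 0.10, -0.24, 0.24 and -0.23 on replicates 1 to 4, a mean of -0.03 ± 0.24 (SD, n = 4). Rpl37a gave 0.34, -0.39, 0.40 and -0.14, a mean of 0.05 ± 0.38 (SD, n = 4), the widest spread of any member. In both genes the 2 arrays with a red mutant were positive and the 2 with a green mutant negative, and with the dye fitted the 95% interval of Rpl37a was -0.09 to 0.19. Rpl10a had a mean of 0.06 ± 0.23 (SD, n = 4) and Rpl35 of 0.02 ± 0.28 (SD, n = 4), with the same alternation.

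Other large subunit genes with roles of their own had small means as well. Rpl3 and Rpl4, which line the core of the subunit, had means of 0.02 and 0.03. Rpl10, which joins the subunit last, in the cytoplasm, gave 0.14, -0.24, 0.20 and -0.12, a mean of -0.01 ± 0.21 (SD, n = 4). Rpl13a, which can leave the ribosome to silence inflammatory mRNAs, had 0.01 ± 0.14 (SD, n = 4), and Rpl26, which binds the mRNA of p53, had 0.03 ± 0.13 (SD, n = 4). Rpl22, an RNA-binding protein that T cell development needs, was above 0 on 3 arrays. Rpl7a, Rpl15 and Rpl19 had means of -0.02, 0.0023 and -0.0026. None of these differed from 0 beyond its interval, since apart from Rpl21 every large subunit gene's 95% interval included 0.

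The 3 stalk genes were not called, where 23.6% of all genes were, and 3 genes are too few to set against that share. Rplp0, the base of the stalk, gave 0.26, -0.29, 0.25 and -0.33, a mean of -0.03. Rplp2 gave 0.26, -0.28, 0.38 and -0.17, a mean of 0.05. Rplp1, the partner of Rplp2 on the stalk, was the exception to the dye pattern, at -0.17, -0.02, -0.18 and -0.05, a mean of -0.11 (limma SE 0.05, adjusted p = 0.17). Its control level was above its mutant level on all 4 arrays, by less than 1.2-fold each time. When the spread was fitted as a trend of intensity, Rplp1 passed the threshold (limma, adjusted p = 0.0497), the 1 of 19 alternative settings in which it did; over the 19 its adjusted p ran from 0.0497 to 0.45.

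The small subunit was represented by 30 genes, and 0 were called, against 23.6% of all genes. Their ratios ran from -0.14 (Rps2) to 0.16 (Rps14), with a median of 0.01 and an SD of 0.06. These ends were named after their values were seen. Rps14, the loss of which in people is tied to an acquired anaemia, gave 0.29, -0.04, 0.31 and 0.08 (mean 0.16, limma SE 0.05, adjusted p = 0.066). Rps2 gave 0.10, -0.24, -0.03 and -0.39 (mean -0.14, limma SE 0.06, adjusted p = 0.12). Neither gene had 1 sign on all arrays. Both were called by 3 of the 19 alternative settings: the intensity trend, the term for a sex difference in the mutant effect and the separate-channel fit. The last 2 also called more of all genes, 18.6% higher and 14.4% lower with the sex difference term and 18.2% and 14.6% with separate channels. Rps3, which lines the channel by which the mRNA enters, gave -0.11, -0.08, 0.0029 and 0.05, a mean of -0.03 ± 0.07 (SD, n = 4). Rps6, the protein that the S6 kinases phosphorylate, gave 0.21, -0.30, 0.29 and -0.20, and these average to 0.00012. The tightest member was Rps21, at 0.04, 0.02, -0.03 and -0.05. Rpsa, the small subunit protein also known as the laminin receptor, had a mean of -0.04 ± 0.12 (SD, n = 4). Rps27a, which is made as a fusion with ubiquitin, had a mean of -0.04 ± 0.13 (SD, n = 4), and both had 3 of 4 arrays below 0.

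The members known for tissue-specific effects of their loss were measured as closely as the rest. The 8 genes listed for Diamond-Blackfan anaemia (Rps7, Rps10, Rps19, Rps24, Rps26, Rpl5, Rpl11 and Rpl35a), a disorder of red cell production, lay between -0.04 (Rps10) and 0.05 (Rpl35a). Of these 8, 0 were called, against 23.6% of all genes, and 8 genes are too few to set against that share. Rps19, the gene most often mutated in it, gave 0.09, -0.06, 0.02 and -0.02, a mean of 0.01 ± 0.06 (SD, n = 4). The 3 that bind Mdm2 when ribosome assembly fails, Rpl5, Rpl11 and Rpl23, had means of 0.04, 0.02 and 0.04. The 4 linked to developmental patterning or body form in mice, Rpl38, Rpl24, Rps6 and Rpl27a, had means of 0.01, 0.05, 0.00012 and -0.00098. The 95% interval of Rpl38 was -0.12 to 0.15. The 4 X-linked members, Rps4x, Rpl10, Rpl36a and Rpl39, had means of 0.05, -0.01, 0.01 and 0.08, and both RNAs of an array were of 1 sex. The Rps4x probe lies on chromosome 3 in the file, not on X, so its value may not be that of the X-linked gene.

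Rpl21 was the 1 member called, and its probes gave opposite answers. Rpl21 encodes a large subunit protein. Its brighter probe, which the rule uses, had mutant log2 levels of 8.76, 9.33, 9.40 and 9.15 and control log2 levels of 10.22, 10.19, 10.26 and 10.05 on replicates 1 to 4. The groups did not overlap. The log2 ratios were -1.45, -0.85, -0.87 and -0.89, a mean of -1.02 or 2.02-fold lower in the mutant (limma SE 0.09, adjusted p = 0.00049). The second probe gave 1.18, 1.07, 1.11 and 1.31, a mean of 1.17 or 2.24-fold higher (limma SE 0.06, adjusted p = 4.3e-05 over all probes). The probes thus differed by 2.18 on the log2 scale, and the mean of both was 0.07 with an adjusted p of 0.43 in limma, so that no direction can be given for the gene. Without replicate 1 the brighter probe's ratio was -0.87 (limma, adjusted p = 0.00098). Over the 19 alternative settings the limma adjusted p ran from 3.4e-08 to 0.43, and the mean over both probes was the 1 setting with no call.

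Both Rpl21 probes were dim for this family. Their mean log2 signals were 9.67 and 9.01, whereas the median over members was 17.3 and 73 of the 83 members were above 16. In the file's mm9 annotation the probes lie on the plus strand of chr5 less than a kilobase apart, and which part of the gene they cover was not analysed here. The first 30 of the 60 bases of each are shown because they carry the only call of the family. Neither probe shares a stretch of 15 bases with any other probe on the array.
Rpl21 brighter probe, lower in the mutant: ccttagactgtagtgtggggtttgctcatt
Rpl21 dimmer probe, higher in the mutant: gagggttctctagaagtactacctgtctta
The brighter probe lies at chr5:147647577-147647636 and the dimmer at chr5:147648267-147648326. In contrast, the brightest probes of 61 of 83 members share such a stretch with a probe of another name, pseudogenes included, so those signals can hold RNA of near-identical copies.

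The same dependence on the probe appeared elsewhere in the family. Of 169 kept probes of the members, 7 were called, 2 higher and 5 lower, against 22.1% of all kept probes. Besides the Rpl21 pair they include 1 probe each of Rpl14, Rps15a, Rps27a and Rps3a, genes of which another probe was the brightest. The unused Rpl14 probe had a mean of -0.29 (limma, adjusted p = 0.010), where the brightest probe had 0.0037. The unused Rps15a probe had -0.26 against 0.05, and that of Rps27a -0.27 against -0.04. The unused Rps3a probe had 0.30 against 0.04. Over the 51 genes with more than 1 kept probe, the probes lay within 0.3 of each other in 48, and Rpl21 and Rps15a were among the exceptions.

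The spread of the members' probes narrowed with brightness. Among the 89 probes with a mean log2 signal of 17 or more, the SD of the mean log2 ratio was 0.05 and 0 were called. Among the 53 between 15 and 17 it was 0.07 with 1 called, among the 15 between 12 and 15 it was 0.12 with 2 called, and among the 12 under 12 it was 0.49 with 4 called. The last bin holds both Rpl21 probes, at -1.02 and 1.17 and both called, and its SD without them was not computed. Of all kept probes on the array, 22.1% were called. Of those 12 dim probes, 9 were not the probe used for their gene.

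**Figure D3:**
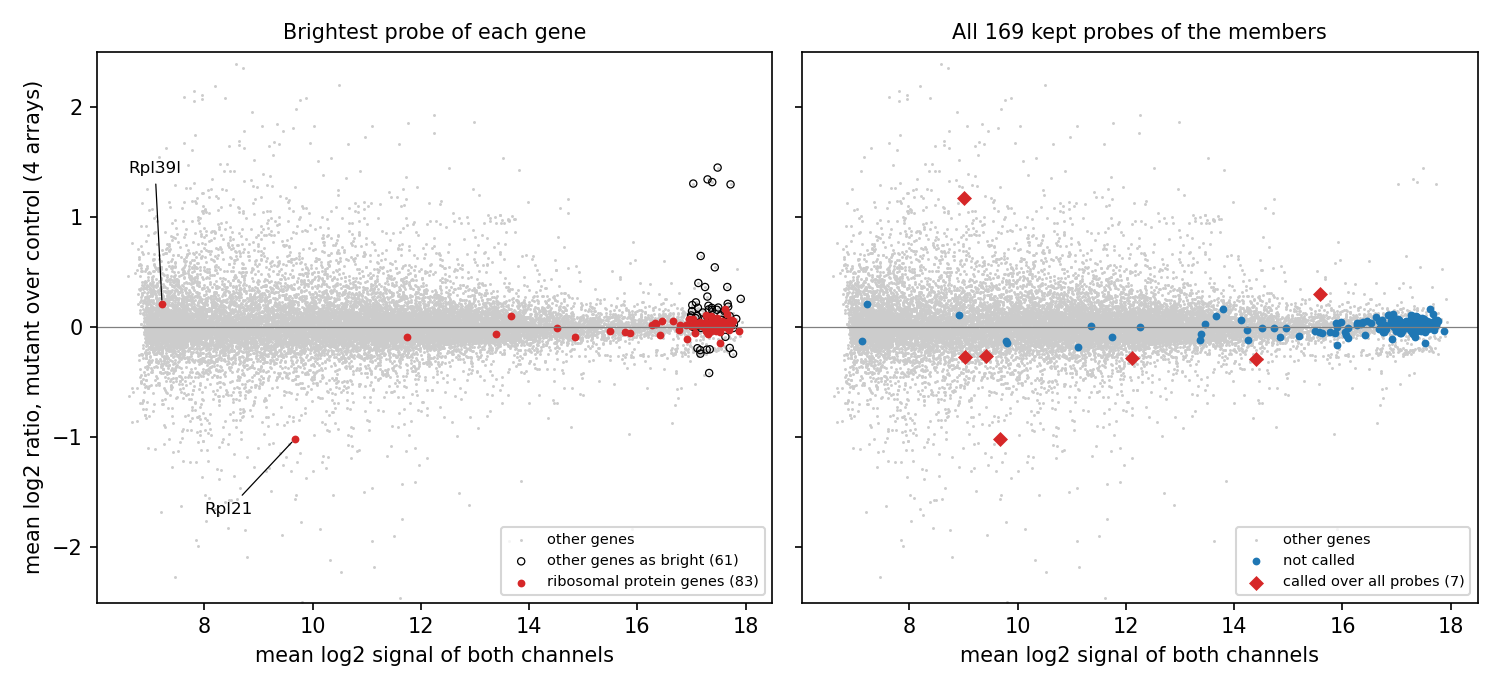
Mean log2 ratio over 4 arrays (y axis) against mean log2 signal of both channels (x axis). Left, the 83 members (red), 61 other named genes as bright (open circles) and all other genes tested (grey). Right, all 169 kept probes of the members over the same grey points, with the 7 called over all probes as red diamonds; 4 of the 7 have a signal under 12.

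Other genes as bright as the members were called at about the rate of all genes. Of named genes outside the family, leaving out provisional names, 61 had a mean log2 signal at or above the members' lower quartile of 16.97. Of these 61, 13 were called higher (21.3%) and 3 lower (4.92%), 26.2% in all against 23.6% of all genes, and their SD was 0.39. The globin genes were the highest of them, with Hbb-y at 1.29 and Hbb-bh1 at 1.45. The glycolytic enzyme gene Gapdh, often used as a reference gene, was lower at -0.19 (limma, adjusted p = 0.036), and the actin gene Actb stood at 0.19 (limma, adjusted p = 0.18). The 61 ran from -0.42 to 1.45, where the members other than Rpl21 ran from -0.14 to 0.21. The globins set the upper end of the 61 and enter their SD, whereas Rpl21 is left out of the members' range. Within 0.21 of 0 lay 44 of the 61 and 82 of the 83 members. The quartiles were 0.02 and 0.19 for the 61, against -0.03 and 0.05 for the members. The difference in width was not tested. This bright set had a median of 0.09 and a median dye term of 0.21, so it also followed the dye.

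The paralogs, related copies of which some can stand in for a ribosomal protein, were dimmer and not called. Of the 8, 6 were tested, and 0 of the 6 passed, where 23.6% of all genes did. With 6 genes, 0 calls do not set the paralogs apart from that share. Rpl22l1, which can replace Rpl22, had a mean of -0.05 ± 0.12 (SD, n = 4), and Rpl22 had 0.08 ± 0.18 (SD, n = 4). Rps27l, a p53 target, had -0.05 ± 0.13 (SD, n = 4), and Rps27 had 0.08 ± 0.20 (SD, n = 4). The probes named Rps27 lie on chromosome 9 in the file's annotation, and RefSeq places the gene on chromosome 3, so that name is uncertain. The same holds for the probes of Rps29 (chromosome 2) and Rps4x. Rpl36al stood at -0.09 and Rpl36a at 0.01. Rps4y2, now called Rps4l, had 0.12, 0.19, 0.04 and 0.06 (mean 0.10, limma, adjusted p = 0.21), all above 0, and Rps4x had a mean of 0.05. Rpl3 had a mean of 0.02 and Rpl10 of -0.01, and their muscle and testis paralogs Rpl3l and Rpl10l are the 2 members not above background.

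Rpl39l, the testis-enriched paralog of Rpl39, was the dimmest member and the highest ratio. Its mutant log2 levels were 7.25, 7.41, 7.37 and 7.27 and its control log2 levels 7.31, 7.20, 7.01 and 6.94. The groups overlapped, since the mutant was lower on replicate 1. The ratios of -0.07, 0.21, 0.36 and 0.33 gave a mean of 0.21 (limma SE 0.08, adjusted p = 0.11). With no background correction the mean was 0.28 (limma, adjusted p = 0.033), and with the local background subtracted it was 0.40 (limma, adjusted p = 0.11). The scanner's own log ratios, which differ in background and in dye normalization, gave 0.52 (limma, adjusted p = 0.032). Without replicate 1 it was 0.31 (limma, adjusted p = 0.038), and without replicate 3 it was 0.10 (limma, adjusted p = 0.49). Rpl39l was called in 6 of the 19 alternative settings, with limma adjusted p from 0.021 to 0.49. Of the 6, the scanner's log ratios and the deposited value table are not separate, since both gave the members the same median (0.0117) and SD (0.151). Rpl39 had a mean of 0.08 ± 0.11 (SD, n = 4).

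Rpl7l1, the tested paralog that resembles Rpl7, had a mean of -0.09 ± 0.10 (SD, n = 4), and Rpl7 had 0.11 ± 0.21 (SD, n = 4). Rps19bp1, which is no ribosome subunit but a protein that binds Rps19, had -0.07 ± 0.14 (SD, n = 4). Neither of them was called.

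No sex difference was called. The difference between the mutant effect in males and in females passed the threshold for 0 of 83 members, against 0.0108% of all genes (2 genes). At an unadjusted p under 0.05 there was 1 member, Rpl39l, with a mean ratio of 0.07 in females and 0.34 in males (limma, adjusted p = 0.29). With 2 arrays per sex, an absent call does not show that the sexes were alike.

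Other genes of the translation machinery were set beside the family. A pair of cytosolic ribosome genes that the name rule misses were not called. Fau, the source of the small subunit protein eS30, stood at -0.01, and Gnb2l1 (Rack1) at 0.01. The 8 elongation genes had a median of 0.00 with 0 called, against 23.6% of all genes, a share that 8 genes are too few to be set against. Among them were Eef1a1 at 0.01 and Tpt1 at 0.07. Of 32 initiation factor genes, 2 were called higher (6.25%) and 1 lower (3.12%), with a median of 0.01. Over all genes these shares were 13.5% and 10.1%. The 1 lower was Eif2s3y, a gene of the Y chromosome, at -0.31 (limma, adjusted p = 0.023). Its mean log2 signal was 8.66, and replicates 1 and 2 held female RNA, so its call is not read as a mutant effect. The medians of these lists were thus near that of the members, 0.01.

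The mitochondrial ribosome and the factors that assemble ribosomes had medians below 0. Of the 75 mitochondrial ribosomal protein genes (Mrpl and Mrps), 0 were called higher and 10 lower (13.3%, against 10.1% of all genes), with a median of -0.08 and 17 of 75 above 0. The lowest adjusted p was that of Mrpl35 (mean -0.39, limma, adjusted p = 0.0058). Mrpl9 was lower too, with a mean of -0.22 (limma, adjusted p = 0.018). Of 36 ribosome biogenesis genes, 0 were called higher and 2 lower (5.56%, below the 10.1% of all genes), with a median of -0.09 and 7 of 36 above 0. The 2 were Rrs1 (mean -0.29) and Tsr1 (mean -0.34), which take part in the assembly of the large and the small subunit. The members' median was 0.01, and the difference between the lists was not tested.

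The regulator lists were read against the 13.5% of all genes called higher and 10.1% called lower. Of 18 p53 targets, Rps27l among them, 2 were called higher (11.1%) and 2 lower (11.1%), shares near those of all genes. Btg2 was higher at 0.57 (limma, adjusted p = 0.00036), and Cdkn1a, the cell cycle inhibitor, was lower at -0.27 (limma, adjusted p = 0.014). Of 15 Myc and mTOR genes, 1 was called (6.67%, lower), Mycn, a driver of ribosome production in embryonic tissue, at -0.34 (limma, adjusted p = 0.012), while Myc stood at 0.27 (limma, adjusted p = 0.051). Of 38 genes listed for the proteasome by name (Psma, Psmb, Psmc and Psmd), 1 was called higher (2.63%) and 2 lower (5.26%), with a median of -0.03. Among the 2 lower was Psmc3ip, which the name pattern takes in but which is no proteasome subunit. Of 88 oxidative phosphorylation genes, 2 were called higher (2.27%) and 3 lower (3.41%), with a median of -0.01.

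**Figure D4:**
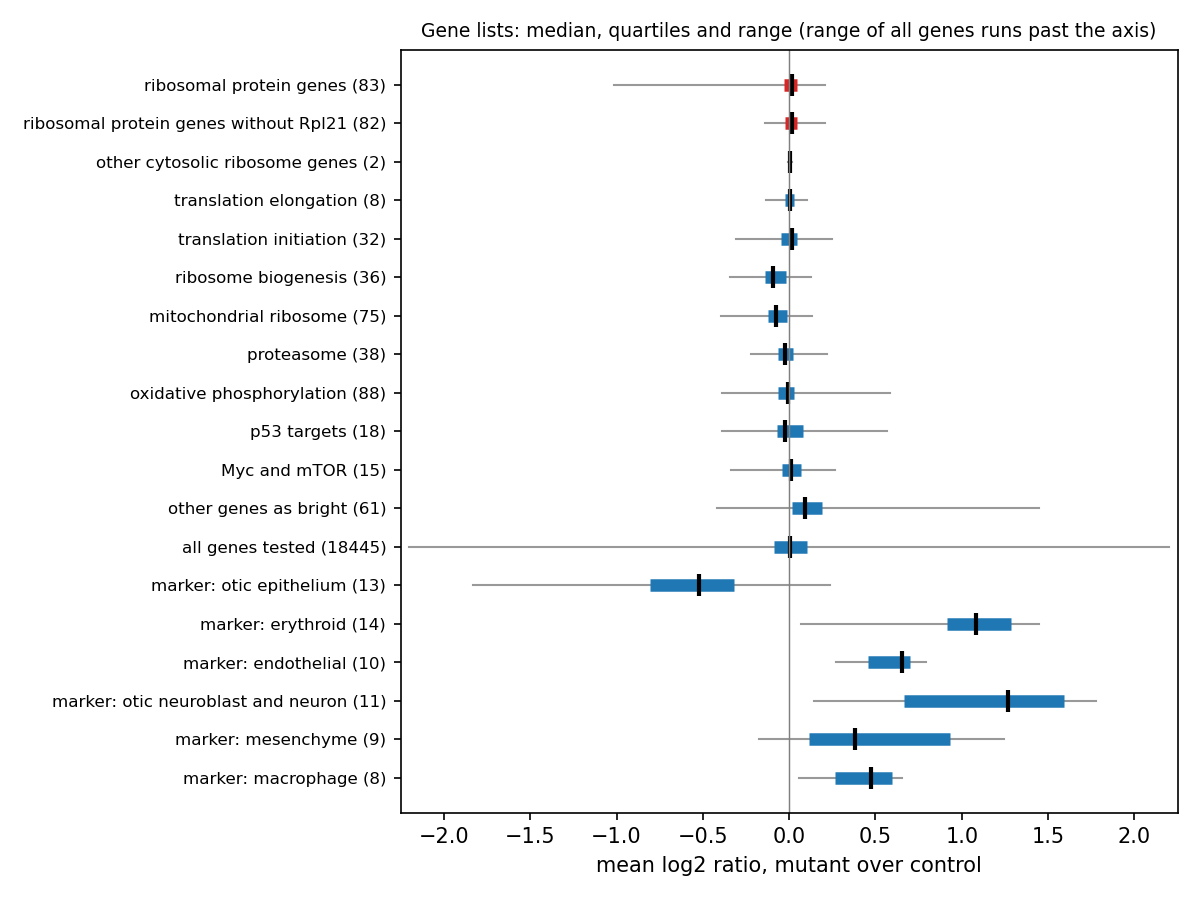
Mean log2 ratio of mutant over control (x axis) by gene list, with the number of genes tested in brackets; black ticks are medians, thick bars join the quartiles and thin lines give the range. The members (red) have quartiles of -0.03 and 0.05, and the marker lists of other cell types have medians above 0.

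The arrays also show a change in cell type markers and a check of the labels. Tbx3 was lower on all arrays, with a mean of -3.43 (limma, adjusted p = 4.1e-06), while the Tbx2 probe stood at 0.06 (limma, adjusted p = 0.65), and whether it lies in the deleted part was not analysed here. Between 58.4% and 63.2% of the spots of a channel were well above background, 0 spots were saturated, and the 4 arrays limit the precision. Of 13 otic epithelium markers, 11 were called lower and 1 higher (median -0.52), and all 13 were detected. Of the erythroid markers 13 of 14 were called higher (median 1.08), of the endothelial markers 10 of 10 (median 0.66), of the neuroblast and neuron markers 9 of 11 (median 1.27), of the mesenchyme markers 6 of 9 (median 0.38) and of the macrophage markers 6 of 8 (median 0.48). Of 5 hindbrain markers, 1 was called higher and 1 lower. The ribosomal protein genes had a median of 0.01 beside these shifts, whose part in that value was not tested.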

How the data were processed

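The spot intensities and local backgrounds are those of Agilent Feature Extraction 10.7.3.1, as given per the file headers. The log10 ratios (red over green) beside them were made by the same software after background subtraction and dye normalization, per the file headers. In the authors' deposited value table each entry is a signed fold ratio; its log2 values correlated at 0.93 to 0.98 with the scanner's ratios turned to mutant over control by the dye labels (median of each column 1). All arrays lay on 1 slide and 1 scan, so no slide batch could be tested.

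Mean signals were corrected with normexp (offset 50) and loess-normalized within arrays, giving control spots no weight (limma 3.58.1, R 4.3.3). From 21 to 32 non-uniform spots an array were left out. Of 39429 probes, 23200 passed a filter of being well above background in 1 genotype on 3 or more of the 4 arrays, and the brightest of them stood for its gene name. Log2 ratios were fitted with a genotype and a dye term (lmFit, eBayes), with Benjamini-Hochberg adjustment over all genes. An SD is over the 4 turned ratios and includes the dye effect; limma's SE does not. Signals are log2 means of both channels, and channel levels follow Aquantile normalization. The steps were also run on simulated data in which the noise and dye effect of each probe were drawn independently. The members share a dye shift, so that run does not check the steps for such genes. Mutant and control of an array share the spot, so the array is the block of the main fit. Alternatives are given in the closing section.

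Members, lists and tests were chosen with earlier results of these data known. The text names every called member, the 4 brightest and 3 dimmest, paralog pairs and members of fixed role lists, and in other lists genes among the 4 with the smallest adjusted p; further members, Eef1a1, the probe-level calls and the bright genes were named after their values were seen. Probe positions are the file's (mm9) and promoter sequences are RefSeq's (GRCm38.p6). By accession, 83 of 83 tested members matched RefSeq. Values of some single genes are not reported here.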

Additional observations from a re-analysis of the deposited data

Results flagged for a closer look

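In each member the 4 arrays were searched for a value that stood far from the rest (Dixon's ratio of gap to range past its 95% value). Such a value was found in 3 of 83 members. In groups of like draws chance gives one in about 1 in 20. The ratios here still hold the dye effect, so that rate is only a rough guide. Rpl21 had -1.45 on replicate 1, where the other arrays lay between -0.89 and -0.85; the call held without it. Rpl35a had -0.18 on replicate 2, where the others lay between 0.11 and 0.14. Rps13 had -0.20 on replicate 2, where the others lay between -0.03 and 0.0011. Neither Rpl35a nor Rps13 was called (limma, adjusted p = 0.65 and 0.47).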

How the results depend on the processing

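There were 19 alternative settings and the 1 without Rpl21, which was added after seeing the data. The count of members called higher, 0 as reported, was 1 with no background correction, 1 with the scanner's log ratios and 1 with the deposited value table (each time Rpl39l). For the members the value table gave the same median (0.0117) and SD (0.151) as the scanner's ratios, so these 2 settings are not separate. The count higher was 2 with a term for a sex difference in the mutant effect, 2 with an intensity trend and 2 with separate channels. The count of members called lower, 1 as reported, was 2 with the sex difference term, 2 with separate channels, 3 with an intensity trend and 0 with the mean of all kept probes. Over all genes, the sex difference term called 18.6% higher and 14.4% lower. Leaving out each array gave 0 to 1 called higher, 1 in each case called lower, medians from -0.01 to 0.04 and SDs from 0.12 to 0.14; the 1 called higher, without replicate 1, was Rpl39l. The SD of 0.127 was 0.0616 with the mean of all kept probes and 0.0576 without Rpl21. Rpl21 turned from -1.02 to 0.0747 with the mean of its kept probes, which is built from 2 probes of opposite sign. Median centring in place of loess gave a median of -0.04. With the ribosomal protein probes at weight 0 in the loess the median was 0.02, while probes of pseudogene names stayed in that fit. The array is the pair of each mutant and control; with no replicate block, when channel levels were fitted without the array, 0 members were called higher and 1 lower, with a median of 0.01 and an SD of 0.13. The scanner's log ratios moved the higher share of all calls from 57.1% to 51.8%. For a sex difference the count of members was 0 in all 4 alternatives. Dim probes limit Rpl39l and Rpl21, whose signals lie far below those of the family.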

Other observations

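Of 46 names of ribosomal pseudogenes, which the rule leaves out, 0 were called higher and 1 lower, against 13.5% and 10.1% of all genes. Their median was -0.03. The 1 called was Rpl26-ps2, with a mean log2 ratio of -2.12 ± 1.17 (SD, n = 4; limma, adjusted p = 0.0026), while Rpl26 itself had 0.03. Its mean log2 signal was 10.3.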
